A study of Mus musculus with 24 samples.

Results

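The genes described here are 10 metalloproteinase genes of the ADAMTS and ADAM families, namely Adamts1, Adamts2, Adamts4, Adamts5, Adamts9, Adamts12, Adamts15, Adam12, Adam10 and Adam17. They were chosen by name, with the ADAMTS proteases that cleave versican among them, while earlier results of these data were known. They are 10 of the 53801 genes whose expression was listed. All 10 had an FPKM (fragments counted for a gene, corrected for its length and for the size of the library) above 1 in each of the 24 libraries, so none was lost to the filter on low values.

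RNA came from PSC, or pancreatic stellate cells, which store vitamin A in the quiescent pancreas and become matrix-producing fibroblasts on activation, of wild-type C57BL/6J mice aged 7 to 10 weeks. For each isolation 4 to 10 pancreata were pooled, so a library does not stand for 1 animal, and PSC were used at passage 1 to 2. The co-cultured cancer cells were KPC cells, 1 line of murine pancreatic ductal adenocarcinoma from an 18 week old mouse carrying p48-Cre and Trp53 R172H. There were 8 groups of 3 libraries. PSC were either co-cultured or kept alone as control PSC, in a standard or an inverse model, and were collected after 24 h or 72 h. In the standard model KPC cells grew on the bottom of the well, away from the PSC in the insert. In the inverse model they grew on the underside of the same membrane, whose pores measured 1 µm, and no KPC cells were present in the control groups. The longest coexistence of both cell types was 96 h (inverse) and 72 h (standard). Libraries were made from 120 ng of RNA (inverse) or 450 ng (standard). In the standard model PSC, controls included, were seeded for 24 h in a medium based on low-glucose DMEM, with more serum. They were changed to the medium of the inverse model when timing began, whereas PSC of the inverse model were seeded in that medium. RNA input and seeding medium cannot be told apart from the model. Whether each library came from an isolation of its own is not given in the sources used here, and p-values then measure the spread between these libraries.

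ADAMTS proteases are secreted enzymes that cut large molecules of the extracellular matrix. Adamts1, Adamts4, Adamts5, Adamts9 and Adamts15 are proteoglycanases that cleave versican and aggrecan, whereas Adamts2 removes the amino-terminal propeptide from fibrillar procollagens and lets collagen fibres assemble. ADAM proteases are mostly anchored in the cell membrane, where Adam10 and Adam17 act as sheddases that release growth factors, cytokines and receptors from the cell surface. Adam12 also sheds growth factors and is a known gene of activated fibroblasts. Many of these enzymes are held in check by tissue inhibitors of metalloproteinases (TIMP), of which Timp3 is the main inhibitor of Adam17, Adamts4 and Adamts5.

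Libraries held between 15930701 and 24795665 counted fragments, and between 12277 and 13307 genes had an FPKM above 1. Of 12 markers of PSC and fibroblasts, 11 were above an FPKM of 1 in every library, while Gfap, a marker used for PSC, was between 0 and 0.237 in all of them. The summed FPKM of 10 epithelial markers was between 0 and 2.41 in control libraries and standard co-culture. Its highest value in inverse co-culture was 43.5 at 24 h and 8.17 at 72 h. Krt7, Krt8, Krt18 and Krt19 exceeded an FPKM of 1 in inverse co-culture at 24 h, with Krt8 at 15.2 and Krt19 at 11.6 FPKM in replicate 2. Epcam, Cdh1, Cldn4, Cldn7, Esrp1 and Elf3 were at or below 1 in all libraries. Macrophage markers summed to between 39.1 and 1337 FPKM in the standard model and to between 26.0 and 251 FPKM in the inverse model. Endothelial markers other than Tek, and acinar markers other than Cela1, did not exceed an FPKM of 1. The standard-model libraries with replicate number 1 stood apart from the other libraries, as described for Adamts15, and the values of Adamts15, Adamts12 and Adam17 in the standard model at 72 h are given with and without them.

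By their median over the 24 libraries, levels spanned from 13.5 FPKM for Adamts9 to 1101 FPKM for Adamts2. Adamts2 ranked 43rd among all genes listed, and its level ranged from 634 to 1515 FPKM. Adam12 followed with a median of 311 FPKM (range 161 to 448) and Adamts1 with 174 FPKM (range 82.0 to 304). The procollagen peptidase and the fibroblast sheddase were thus the most abundant of the 10 transcripts per unit length. The mean transcript length was 2232 bases for Adam12 and 10791 for Adamts5. Their highest fragment counts were 20443 and 35669, so the order between genes depends on the lengths used.

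Adamts15 had a median of 103 FPKM, Adamts5 of 89.3 FPKM and Adam10 of 67.2 FPKM. Adamts12, an ADAMTS protease that degrades cartilage oligomeric matrix protein, had a median of 39.5 FPKM, Adam17 of 36.6 FPKM and Adamts4 of 23.2 FPKM. Adam10 varied least, from 58.8 to 80.9 FPKM, and Adamts15 most, from 1.84 to 226 FPKM. The lowest value of Adamts15 rested on 150 fragments and the highest of Adamts2 on 84243.

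**Figure D1:**
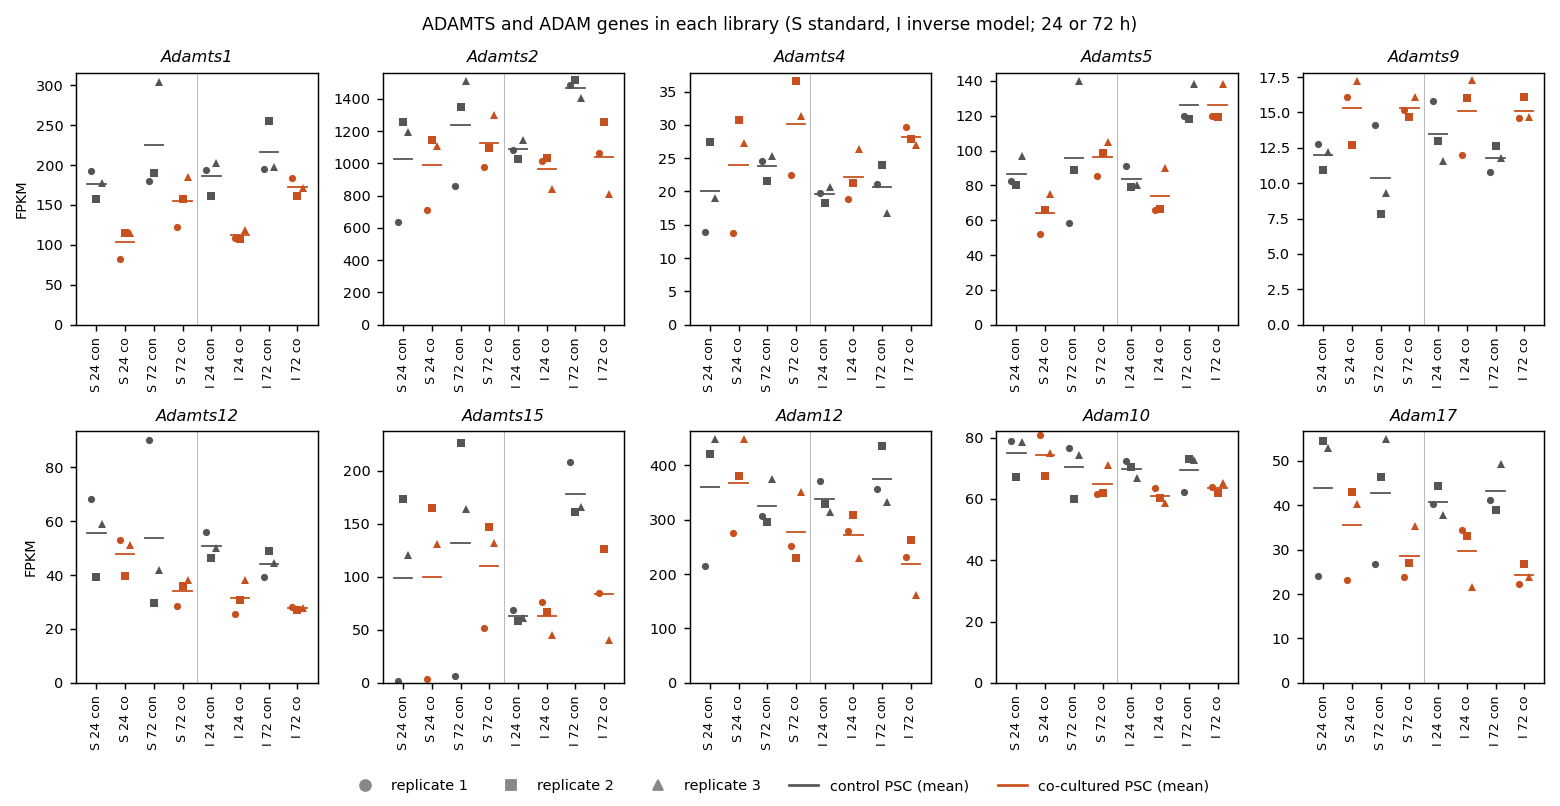
FPKM of the 10 genes (vertical axes, linear, from 0) in each of the 8 groups (horizontal axes; S standard and I inverse model, 24 or 72 h, con control and co co-culture); symbols are the 3 replicates and lines the group means. Adam17, Adamts12 and Adam12 lay below their controls in all inverse co-cultures at 72 h, and Adamts15 was between 1.84 and 6.80 FPKM in 3 libraries of the standard model with replicate number 1.

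Adamts1 and Adamts5 lie next to each other on chromosome 16 in the mouse genome build GRCm38, at chr16:85793827-85803113 and chr16:85856173-85901828 on the minus strand, 53.1 kb apart. Counting disregarded the strand, and exons of Adam17 and Adamts9 overlap exons of a gene on the other strand. Iah1 covers 4.35% of the exonic bases of Adam17 and A730049H05Rik covers 9.18% of those of Adamts9, so fragments from these bases cannot be assigned to 1 strand.

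Among the co-culture comparisons, the highest number of the 10 genes was called in the inverse model at 72 h, the comparison of PSC grown on a membrane with KPC cells on its other side with PSC grown alone. Adam17, Adamts12 and Adam12 were called as lower, and by limma on the FPKM as deposited none of the 10 genes was called as higher. The 3 genes called were 3 of 10, where 12.8% of all 13066 genes tested were called (adjusted p under 0.05) and 9.57% were called as lower. Over all genes 427 were called as higher and 1251 as lower, and 746 and 686 once the libraries were scaled by the median of gene ratios. The median log2 change was -0.42 over the 10 genes and -0.16 over all genes tested, and in 8 of the 10 genes the groups did not overlap, as in 38.3% of all genes tested.

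Adam17, which releases tumour necrosis factor and EGF receptor ligands from the cell surface, was at 41.3, 39.0 and 49.4 FPKM in control PSC and at 22.3, 26.7 and 23.9 FPKM in co-cultured PSC (replicates 1, 2 and 3). Every co-cultured library was below every control library, and the mean of 24.3 FPKM ± 2.23 (SD, n = 3) was 56.2% of the control mean of 43.2 FPKM ± 5.49 (SD, n = 3). The log2 change was -0.82 with a SE of 0.13 (limma, adjusted p = 0.00936).

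Adamts12 was at 39.3, 49.0 and 44.4 FPKM in control PSC and at 28.1, 26.9 and 27.6 FPKM in co-culture. Again the groups did not overlap, and the spread between co-cultured libraries was small, with a mean of 27.6 FPKM ± 0.605 (SD, n = 3) against 44.2 FPKM ± 4.82 (SD, n = 3). The log2 change was -0.67 with a SE of 0.11 (limma, adjusted p = 0.0111).

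Adam12, the most abundant of the ADAM genes, was at 356, 436 and 332 FPKM in control PSC and at 231, 262 and 161 FPKM in co-culture. The co-cultured libraries lay below the controls without overlap, with the lowest value in replicate 3, and their mean was 58.3% of the control mean. The log2 change was -0.80 with a SE of 0.19 (limma, adjusted p = 0.0363).

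The 2 most clearly lowered genes, Adam17 and Adamts12, and Adamts1, which was called at 24 h, are shown with their promoter windows from RefSeq (build GRCm38.p6, 250 bases before to 50 bases after the start of the gene, 5′ to 3′ on the strand of the gene), because each fell in a co-culture comparison and had a window in the table used. They lie at chr12:21373583-21373882 on the minus strand for Adam17, at chr15:11064523-11064822 on the plus strand for Adamts12 and at chr16:85803064-85803363 on the minus strand for Adamts1. Capitals mark the GC box GGGCGG on either strand, the letters bound by Sp1-type factors.
Adam17: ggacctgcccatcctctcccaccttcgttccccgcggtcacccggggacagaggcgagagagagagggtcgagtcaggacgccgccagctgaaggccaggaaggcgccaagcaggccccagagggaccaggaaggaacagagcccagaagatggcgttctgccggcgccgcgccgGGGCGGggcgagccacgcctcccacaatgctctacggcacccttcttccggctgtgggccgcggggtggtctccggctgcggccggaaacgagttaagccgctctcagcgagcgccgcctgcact
Adamts12: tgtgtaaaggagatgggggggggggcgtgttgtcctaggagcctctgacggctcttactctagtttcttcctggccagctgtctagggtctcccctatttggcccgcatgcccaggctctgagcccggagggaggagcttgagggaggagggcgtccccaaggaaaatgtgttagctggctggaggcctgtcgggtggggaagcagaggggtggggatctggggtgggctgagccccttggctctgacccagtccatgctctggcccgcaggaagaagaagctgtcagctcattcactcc
Adamts1: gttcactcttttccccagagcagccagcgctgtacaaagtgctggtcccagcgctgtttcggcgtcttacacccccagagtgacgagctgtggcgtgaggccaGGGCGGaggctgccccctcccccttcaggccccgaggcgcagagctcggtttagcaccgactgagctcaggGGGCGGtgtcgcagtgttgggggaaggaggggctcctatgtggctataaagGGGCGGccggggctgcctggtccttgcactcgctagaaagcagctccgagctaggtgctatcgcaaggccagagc
The GC box occurred 3 times in the window of Adamts1, once in that of Adam17 and not in that of Adamts12, and 35.7% of all 32851 windows held it. The AP-1 motif TGANTCA, present in 7.8% of all windows, and the CCAAT box, present in 37.4%, were searched on both strands and were in none of these 3. These 3 windows held between 62.0% and 70.0% G and C, where the median of all windows was 52.7%. These matches describe the letters only.

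The other 7 genes were not called at 72 h in the inverse model. Adamts15 had the largest difference, with 208, 161 and 166 FPKM in control PSC and 84.8, 126 and 40.6 FPKM in co-culture. The groups did not overlap, but the co-cultured libraries were spread widely, and the log2 change of -1.22 with a SE of 0.36 did not pass the test (limma, adjusted p = 0.0625).

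Adamts2 was at 1489, 1515 and 1406 FPKM in control PSC and at 1064, 1254 and 810 FPKM in co-culture, with a log2 change of -0.52 (SE 0.17, limma, adjusted p = 0.0851). Adamts1 was at 195, 255 and 197 FPKM against 184, 161 and 171 FPKM, with a log2 change of -0.32 (SE 0.13, limma, adjusted p = 0.139). For both, each co-cultured library was below each control library, and the differences did not pass the test over all genes.

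The values of 2 proteoglycanases were on the other side. Adamts4 was at 21.1, 24.0 and 16.7 FPKM in control PSC and at 29.6, 27.8 and 26.9 FPKM in co-culture (log2 change 0.45, SE 0.14, limma, adjusted p = 0.0762). Adamts9 was at 10.8, 12.6 and 11.8 FPKM against 14.6, 16.1 and 14.7 FPKM (log2 change 0.35, SE 0.12, limma, adjusted p = 0.0899). Neither overlapped its control, and neither passed the test.

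Adamts5 was at 120, 118 and 138 FPKM in control PSC and at 120, 119 and 138 FPKM in co-culture, so the libraries of both groups held the same range. Adam10, the constitutive sheddase of Notch receptors and cadherins, was at 62.3, 73.0 and 72.8 FPKM against 63.8, 62.0 and 65.3 FPKM, and its groups overlapped. The adjusted p-values were 0.988 and 0.453 (limma).

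FPKM are shares of a library, and this scaling shifted the median log2 change of all genes in this comparison by 0.15. With it, Adam17 stayed called at -0.66 (limma, adjusted p = 0.0155) and Adamts12 at -0.51 (limma, adjusted p = 0.0356), Adam12 was at -0.64 (limma, adjusted p = 0.0876), and Adamts4 and Adamts9 were called as higher, at 0.61 and 0.51 (limma, adjusted p = 0.0473 and 0.0399). With voom on recovered fragments, Adamts4 and Adamts9 were also called as higher, at 0.47 and 0.37 (adjusted p = 0.0470 and 0.0491, limma), and Adamts15 as lower (adjusted p = 0.0440, limma). In a model over all 24 libraries the adjusted p-values were 0.104 for Adam17, 0.148 for Adamts12 and 0.0628 for Adam12 (limma), so none was called. Without control replicate 3, only Adam17 was called and Adamts12 had an adjusted p of 0.0581 (limma), and Adam12 lost its call without co-culture replicate 1 or without any 1 control library (limma, adjusted p between 0.0878 and 0.0982). Without co-culture replicate 2, 5 genes were called, with Adamts15 at -1.58 and Adamts2 at -0.66 added, and Adamts15 was also called without co-culture replicate 3, at -0.77.

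Markers of other cell types moved in the same comparison. The summed FPKM of 8 adipocyte markers was between 1730 and 2598 in control PSC and between 414 and 968 in co-culture, that of 10 macrophage markers between 128 and 251 and between 55.5 and 84.5, and that of 5 mural and smooth muscle markers between 278 and 518 and between 173 and 309. Acinar markers summed to between 15.3 and 18.1 FPKM in control PSC and between 10.7 and 11.1 FPKM in co-culture. The 12 markers of PSC and fibroblasts summed to between 12205 and 15758 FPKM in control PSC. Their sum was higher in every co-cultured library, between 16466 and 18793 FPKM. Such a sum is led by its most abundant genes, and single markers went both ways. Pdgfra was at 294, 273 and 306 FPKM in control PSC and at 361, 384 and 392 FPKM in co-culture. Lum was at 52.6, 38.5 and 56.1 FPKM against 17.5, 19.7 and 11.3 FPKM. Of the 10 epithelial markers, Krt8, Krt18 and Krt19 exceeded an FPKM of 1 in co-culture, where the sum was between 1.50 and 8.17, and none did in control PSC. The macrophage markers Ptprc, Adgre1, Mrc1 and Itgam were at or below an FPKM of 1 in every co-cultured library, and so was the adipocyte marker Lep in both groups. The part of these cells in the changes of the 10 genes was not tested. In bulk RNA, fewer cells of a type and less RNA per cell cannot be told apart.

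At 24 h in the inverse model, Adamts1 fell and none of the other genes described here was called, which was 1 of 10, where 2.47% of all 12827 genes tested were called and 1.39% were called as lower. Over all genes 139 were called as higher and 178 as lower, and 179 and 145 with median-ratio scaling. Adamts1, the first ADAMTS protease described and a versican-cleaving enzyme, was at 194, 161 and 203 FPKM in control PSC and at 109, 107 and 119 FPKM in co-culture. The groups were far apart, and the mean of 112 FPKM ± 6.18 (SD, n = 3) was 60.2% of the control mean of 186 FPKM ± 21.9 (SD, n = 3). The log2 change was -0.72 with a SE of 0.11 (limma, adjusted p = 0.0168).

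Adamts12 was at 56.0, 46.5 and 49.9 FPKM in control PSC and at 25.5, 30.7 and 38.2 FPKM in co-culture, a log2 change of -0.70 (SE 0.15, limma, adjusted p = 0.0566). Adam17 was at 40.2, 44.3 and 37.9 FPKM against 34.4, 33.2 and 21.6 FPKM, a log2 change of -0.47 (SE 0.18, limma, adjusted p = 0.251). These genes, like Adam12 and Adam10, had groups that did not overlap and did not pass the test.

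Groups did not overlap in 5 of the 10 genes, as in 21.2% of all genes tested, and the median log2 change was -0.19 over the 10 genes and -0.06 over all. Adam12 was at 371, 329 and 314 FPKM in control PSC and at 279, 308 and 229 FPKM in co-culture (log2 change -0.32), and Adam10 at 72.5, 70.3 and 66.7 FPKM against 63.4, 60.4 and 58.8 FPKM (log2 change -0.20). The procollagen peptidase and the other proteoglycanases had overlapping groups at 24 h.

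Adamts2 was at 1086, 1029 and 1147 FPKM in control PSC and at 1014, 1033 and 844 FPKM in co-culture, and Adamts5 at 90.9, 79.3 and 80.5 FPKM against 65.8, 66.4 and 89.9 FPKM. Adamts4 was at 19.8, 18.3 and 20.6 FPKM against 18.8, 21.2 and 26.4 FPKM, and Adamts9 had means of 13.5 FPKM ± 2.15 in control PSC and 15.1 FPKM ± 2.77 in co-culture (SD, n = 3 each). With Adamts15, these genes had log2 changes between -0.19 and 0.16. Adamts15 was at 68.6, 58.1 and 61.5 FPKM in control PSC and at 76.6, 66.9 and 44.9 FPKM in co-culture, and these groups overlapped.

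The call of Adamts1 at 24 h was lost without control replicate 1, without co-culture replicate 2 and without control replicate 3 (limma, adjusted p = 0.0818, 0.0772 and 0.0847), and in the model over all 24 libraries (limma, adjusted p = 0.164). Without co-culture replicate 3, Adamts12 was called as well, with a log2 change of -0.84 (limma, adjusted p = 0.0116). Mural and smooth muscle markers summed to between 758 and 836 FPKM in control PSC and between 361 and 438 FPKM in co-culture, and epithelial markers to between 0.370 and 0.861 FPKM and between 1.92 and 43.5 FPKM. Mesothelial markers summed to between 20.2 and 24.5 FPKM and between 30.5 and 33.8 FPKM. Their part in the result was not tested.

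**Figure D2:**
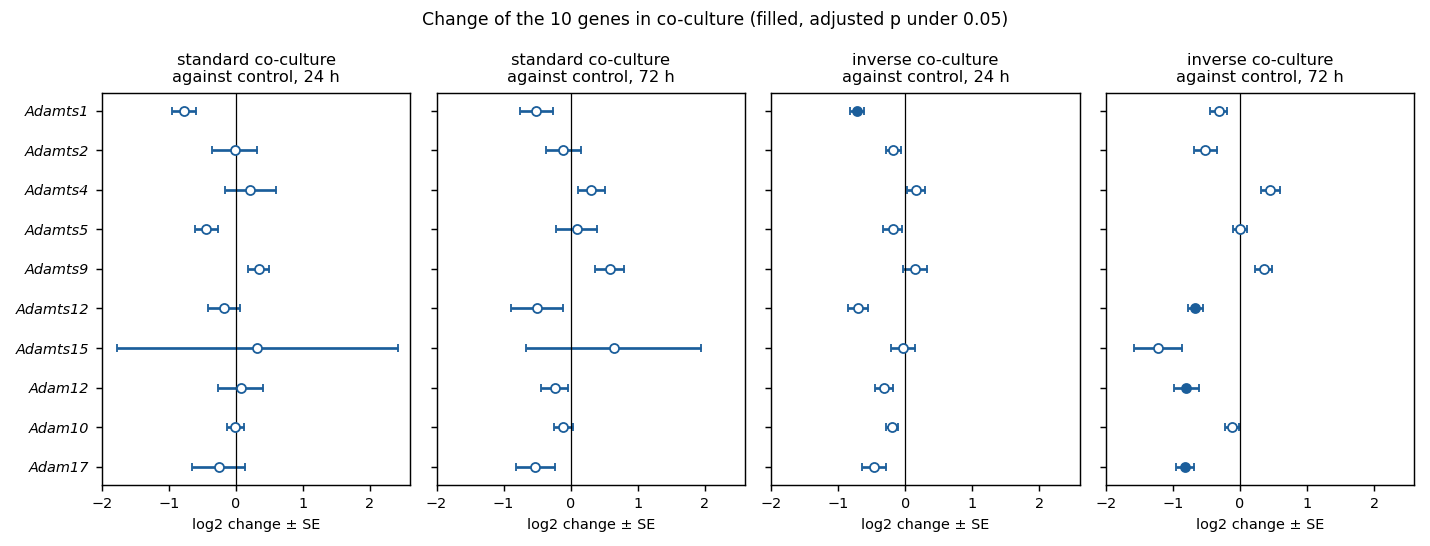
Log2 change of each gene against its own control with its standard error (horizontal axes) in the 4 co-culture comparisons, n = 3 libraries against 3; filled points passed an adjusted p of 0.05. Filled points stand for Adamts1 in the inverse model at 24 h and for Adamts12, Adam12 and Adam17 at 72 h, and error bars of Adamts15 in the standard model are the widest at 2.09 and 1.30.

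In the standard model, where the KPC cells were at a distance from the membrane, none of the 10 genes was called at 24 h or at 72 h by limma or by limma's voom on recovered fragments. Neither tool called any gene there (limma, 0% of 12859 genes at 24 h and 0% of 12863 genes at 72 h). Of the 10 genes, 2 had an unadjusted p under 0.05 at 24 h and 1 at 72 h, where 371 and 800 of all genes had one. In this model, control and co-culture libraries of 1 number shared their deviations from the group means. With the number as a block 1.22% of all genes were called at 24 h, and again 0 of the 10.

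The largest of these differences was that of Adamts1 at 24 h, which was at 193, 158 and 177 FPKM in control PSC and at 82.0, 115 and 115 FPKM in co-culture. The groups did not overlap, and the log2 change of -0.77 (SE 0.18) was close in size to that of the inverse model, with an adjusted p of 1.00 without and of 0.0720 with the block (limma). At 72 h Adamts1 was at 180, 190 and 304 FPKM against 122, 158 and 185 FPKM, with groups that overlapped and a log2 change of -0.51 (SE 0.25, limma, adjusted p = 0.792).

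Adamts5 at 24 h was at 82.6, 80.2 and 97.0 FPKM in control PSC and at 52.2, 65.9 and 75.2 FPKM in co-culture, a log2 change of -0.44 (SE 0.17, limma, adjusted p = 1.00). Its groups did not overlap at 24 h and did at 72 h. Adamts9 at 72 h was at 14.1, 7.84 and 9.33 FPKM against 15.2, 14.7 and 16.1 FPKM, a log2 change of 0.58 (SE 0.22, limma, adjusted p = 0.779). Groups did not overlap in 2 of the 10 genes at 24 h (7.73% of all genes tested) and in 1 at 72 h (13.1% of all genes tested).

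Adam17 was lower in each co-cultured library than in the control library of the same number at both times. It was at 24.0, 54.5 and 52.9 FPKM in control PSC and at 23.1, 43.1 and 40.4 FPKM in co-culture at 24 h, and at 26.8, 46.5 and 55.0 FPKM and at 23.8, 26.9 and 35.3 FPKM at 72 h. Replicate 1 was low in control and co-culture alike, the groups overlapped at both times, and the log2 changes were -0.26 (SE 0.39) and -0.53 (SE 0.29). Without the libraries numbered 1 they were -0.36 and -0.71 (limma, adjusted p = 0.525 and 0.242).

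Adamts12 at 72 h was at 90.1, 29.7 and 41.8 FPKM in control PSC and at 28.5, 36.1 and 38.0 FPKM in co-culture. Its log2 change of -0.50 rested on the value of 90.1, and without the libraries numbered 1 it was 0.07. At 24 h Adamts12 was at 68.4, 39.2 and 59.1 FPKM in control PSC and at 53.0, 39.7 and 51.2 FPKM in co-culture, with overlapping groups and a log2 change of -0.18 (SE 0.24).

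Adamts4 was between 13.9 and 27.4 FPKM in control PSC and at 13.7, 30.7 and 27.2 FPKM in co-culture at 24 h, and at 24.6, 21.6 and 25.3 FPKM and at 22.5, 36.6 and 31.3 FPKM at 72 h. Its log2 changes were 0.21 (SE 0.38) and 0.31 (SE 0.20). Adamts9 at 24 h was at 12.8, 10.9 and 12.2 FPKM against 16.1, 12.7 and 17.2 FPKM, a log2 change of 0.34 (SE 0.16), and Adamts5 at 72 h was at 58.3, 88.8 and 140 FPKM against 85.5, 98.4 and 105 FPKM, a log2 change of 0.09 (SE 0.31). All of these groups overlapped.

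Adam12 was at 214, 421 and 448 FPKM in control PSC and at 275, 381 and 448 FPKM in co-culture at 24 h, and at 306, 296 and 374 FPKM and at 252, 230 and 351 FPKM at 72 h. Adam10 was at 78.9, 67.0 and 78.5 FPKM and at 80.9, 67.4 and 74.9 FPKM at 24 h, and at 76.7, 59.9 and 74.4 FPKM and at 61.7, 62.0 and 70.9 FPKM at 72 h. The groups overlapped, and the log2 changes of both genes lay between -0.24 and 0.07. Adamts2 was at 634, 1259 and 1192 FPKM and at 713, 1144 and 1108 FPKM at 24 h, and at 861, 1350 and 1508 FPKM and at 979, 1093 and 1301 FPKM at 72 h, with log2 changes of -0.02 and -0.11.

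Adamts15 set the libraries numbered 1 of the standard model apart. It was at 1.84, 173 and 121 FPKM in control PSC and at 3.92, 165 and 131 FPKM in co-culture at 24 h, and at 6.80, 226 and 164 FPKM and at 51.6, 147 and 132 FPKM at 72 h. The first value of each group is replicate 1, which was the lowest of its group in all 4 groups. In the 3 libraries below 10 FPKM, Pdgfra, a receptor of fibroblasts, was between 92.4 and 173 FPKM, where the other 21 libraries had at least 201 FPKM, and Acta2, the smooth muscle actin of myofibroblasts, was between 3129 and 5963 FPKM, where the others had at most 2922 FPKM. Replicate 1 of co-culture at 72 h was not among them, with 340 FPKM of Pdgfra and 1194 FPKM of Acta2. With the libraries numbered 1, the log2 change of Adamts15 was 0.32 at 24 h and 0.64 at 72 h, and without them it was 0.02 and -0.46 (limma, adjusted p = 0.987 and 0.328).

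**Figure D3:**
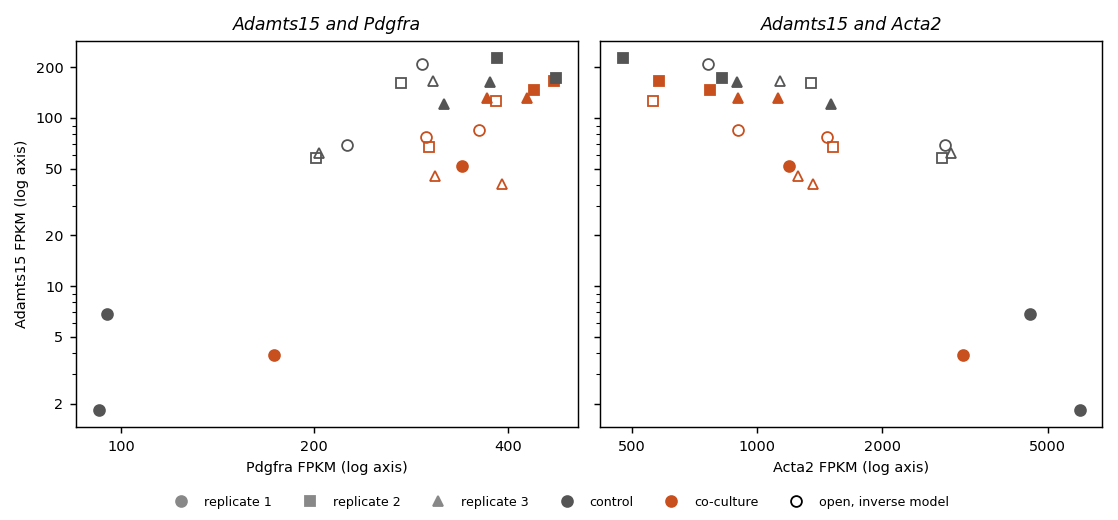
FPKM of Adamts15 (vertical axis, log scale) against FPKM of Pdgfra (left) and Acta2 (right, both log scale) in the 24 libraries; symbols give the replicate number, colours control and co-culture, and open symbols the inverse model. The 3 libraries with Adamts15 between 1.84 and 6.80 FPKM had the lowest values of Pdgfra and the highest of Acta2.

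The co-culture effect was not shown to differ between the models for any of the 10 genes. In a limma fit over all 24 libraries without the replicate block, 0 of the 10 genes passed at 24 h and 0 at 72 h (0% of 14452 genes in both). In that fit none of the 10 genes had an unadjusted p under 0.05, where 182 and 501 of all genes had one. The difference, inverse minus standard, was -0.22 (SE 0.42) at 24 h and -0.29 (SE 0.42) at 72 h for Adam17, and 0.05 (SE 0.27) at 24 h for Adamts1. For Adam12 at 72 h it was -0.55 (SE 0.36). With the replicate number as a block, these differences were the same and their SE were smaller. The SE were then 0.25 at both times for Adam17, 0.23 for Adamts1 and 0.23 for Adam12. The lowest adjusted p of the 10 genes at 72 h was 0.567 with the block, for Adam12 (limma), and none passed. Without the standard-model libraries numbered 1, these differences were -0.12 (SE 0.25) and -0.11 (SE 0.25) for Adam17, -0.19 (SE 0.24) for Adamts1 and -0.57 (SE 0.29) for Adam12, and again none of the 10 genes passed. The other differences lay between -0.51 and 0.25 at 24 h and between -1.86 and 0.20 at 72 h, with Adamts15 at 72 h the lowest, at -1.86 (SE 2.03) with and -0.76 (SE 0.47) without these libraries. For Adamts12 at 72 h the difference was -0.17 (SE 0.39) with and -0.74 (SE 0.27) without them (limma, adjusted p = 0.892). The falls called in the inverse model were thus not shown to differ from the changes in the standard model.

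Nor was a difference of the effect between 72 h and 24 h shown within a model. None of the 10 genes passed in the standard model (0% of 13694 genes) or in the inverse model (0% of 13722 genes). Without the replicate block, unadjusted p-values under 0.05 were found for 0 and 2 of the 10, where 141 and 1471 of all genes had one. The largest difference was that of Adamts15 in the inverse model, -1.19 (SE 0.45, limma, adjusted p = 0.393). The others lay between -0.48 and 0.41 in the inverse model, and all 10 between -0.32 and 0.53 in the standard model.

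Among control PSC of the inverse model, Adamts15, Adamts5 and Adamts2 rose from 24 h to 72 h and none of the 10 genes was called as lower. This was 3 of 10, where 19.2% of 13092 genes tested were called and 10.2% were called as higher. These controls are the ones used in both co-culture comparisons of that model. Adamts15 went from a mean of 62.7 FPKM ± 5.34 to 178 FPKM ± 26.1 (SD, n = 3 each), with a log2 change of 1.49 (SE 0.12, limma, adjusted p = 0.00122). Co-cultured PSC at 72 h, with 84.8, 126 and 40.6 FPKM, lay between these levels or below.

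Adamts5 went from 83.6 FPKM ± 6.41 to 126 FPKM ± 11.1 (SD, n = 3 each) and had a log2 change of 0.59 (SE 0.10, limma, adjusted p = 0.00581). Adamts2 went from 1088 FPKM ± 59.1 to 1470 FPKM ± 56.8 (SD, n = 3 each), a log2 change of 0.44 (SE 0.09, limma, adjusted p = 0.0152), and was not called without control replicate 1 or 2 of 24 h (limma, adjusted p = 0.0632 and 0.0793). In all 3 genes the groups did not overlap. The other 7 genes were not called, with log2 changes between -0.20 and 0.21.

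Marker sums moved in the same controls without overlap. From 24 h to 72 h, adipocyte markers went from between 652 and 1087 FPKM to between 1730 and 2598 FPKM, and macrophage markers from between 75.0 and 83.3 FPKM to between 128 and 251 FPKM. Mural and smooth muscle markers went from between 758 and 836 FPKM to between 278 and 518 FPKM, and markers of PSC and fibroblasts from between 15911 and 18384 FPKM to between 12205 and 15758 FPKM. Their part in the rises was not tested.

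In control PSC of the standard model none of the 10 genes was called over time by limma (0% of 12963 genes), and none was called between the controls of both models at 24 h (0% of 12903 genes) or at 72 h (0% of 13106 genes). Without the replicate block, no unadjusted p of the 10 genes was under 0.05 in these 3 comparisons, where 127, 225 and 810 of all genes had one. Adamts15 depended on the libraries numbered 1, since control PSC of the inverse model at 24 h had a log2 difference of 0.78 to those of the standard model with them and of -1.20 without them (limma, adjusted p = 0.0430). The other 9 genes differed by between -0.10 and 0.16 at 24 h, and all 10 by between -0.22 and 1.45 at 72 h, where Adamts15 had 1.45 with and -0.12 without these libraries. Over time in the standard controls, the log2 changes of the 10 genes lay between -0.23 and 0.82.

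Across the 8 groups, the lowest mean of Adam17, of Adamts12 and of Adam12 was that of inverse co-culture at 72 h. For Adam17 the order continued with standard co-culture at 72 h (28.7 FPKM), inverse co-culture at 24 h (29.7 FPKM) and standard co-culture at 24 h (35.5 FPKM), and the 4 control groups were between 40.8 and 43.8 FPKM. Each neighbouring pair in this order overlapped. For Adamts12 the order was inverse co-culture at 72 h (27.6 FPKM), inverse co-culture at 24 h (31.5 FPKM) and standard co-culture at 72 h (34.2 FPKM), and the gap to the next group, control PSC of the inverse model at 72 h (44.2 FPKM), was the only one without overlap.

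The 10 genes varied together to different degrees. Over the 24 libraries, Pearson's r of log2(FPKM + 0.5) was 0.89 between Adamts15 and Adamts2, 0.81 between Adam17 and Adam12, 0.80 between Adamts12 and Adam10 and 0.70 between Adamts1 and Adamts5, and -0.64 between Adam17 and Adamts9. These are descriptions over libraries that share groups and depth, with no p. Among 14451 other genes, the most like Adamts15 was Scn7a (r = 0.97), the most like Adam17 was Vcam1 (0.96), the most like Adamts12 was Ppp1r12a (0.91), the most like Adamts1 was Lama5 (0.85) and the most like Adamts5 was Lrp5 (0.83). Without the 4 libraries numbered 1 of the standard model, r was 0.91, 0.95, 0.82, 0.88 and 0.82 for these pairs.

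Some substrates and partners of the proteoglycanases rose in inverse co-culture. Of 9 tested genes of a list of 16, 3 rose at 24 h in the inverse model (Fbln1, Vcan and Sdc4). At 72 h 6 rose there, and none was called as lower at either time. Of all genes tested, 1.08% and 3.27% were called as higher. The list was chosen with earlier results of these data known. The study had already named Vcan, Sdc4, Fbln1 and Cd44 from these libraries, so the shares are no test of the list. The median log2 change of the list was 0.53 at 24 h and 0.79 at 72 h in the inverse model, and 0.78 and 0.95 in the standard model, where none of its genes was called (limma without the block), and that of all genes was between -0.16 and -0.01. Vcan, which encodes versican, was at 46.1, 42.9 and 22.9 FPKM in control PSC and at 79.4, 81.1 and 79.4 FPKM in co-culture at 72 h. Its log2 change was 1.15 (SE 0.24, limma, adjusted p = 0.0233), and at 24 h it was 1.16 (SE 0.23, limma, adjusted p = 0.0391). None of the 5 versican-cleaving genes among the 10 was called as higher in a co-culture comparison by limma on the FPKM as deposited. With median-ratio scaling, and with voom, Adamts4 and Adamts9 were called as higher at 72 h in the inverse model.

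In the standard model at 24 h the call of Vcan by limma depended on the replicate block. The study itself, with DESeq2, reported Vcan as higher in this model at 24 h and at 72 h. Vcan was at 24.3, 34.9 and 32.4 FPKM in control PSC and at 76.1, 93.1 and 107 FPKM in co-culture at 24 h, without overlap, with a log2 change of 1.58 (SE 0.19) and an adjusted p of 0.634 without and of 0.00971 with the block (limma). With the block, 4 genes of the list rose at 24 h in the standard model.

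At 72 h in the inverse model the smallest adjusted p-values of this list were those of Sdc4, a heparan sulfate proteoglycan of the cell surface, and of Tnfaip6, a hyaluronan-binding protein. Sdc4 went from 128 to 335 FPKM (log2 change 1.39, SE 0.14, limma, adjusted p = 0.00390) and Tnfaip6 from 2.42 to 7.81 FPKM (log2 change 1.50, SE 0.20, limma, adjusted p = 0.00667). Fbln1, a cofactor of Adamts1, was at 64.6, 56.8 and 41.3 FPKM in control PSC and at 117, 104 and 125 FPKM in co-culture at 24 h (log2 change 1.10, SE 0.16, limma, adjusted p = 0.0159) and was not called at 72 h (log2 change 0.79, SE 0.25, limma, adjusted p = 0.0772).

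Among 6 tested genes of inhibitors and clearance receptors, Timp1 rose at 24 h, and at 72 h Timp1 and A2m rose and Timp2 fell in the inverse model. Of all genes tested, 2.47% were called at 24 h and 12.8% at 72 h. Timp1, an inhibitor of Adam10 and of many matrix metalloproteinases, was at 344, 341 and 199 FPKM in control PSC and at 1201, 1235 and 1208 FPKM in co-culture at 24 h (log2 change 2.08, SE 0.19, limma, adjusted p = 0.00341), and at 251, 156 and 142 FPKM against 900, 877 and 341 FPKM at 72 h (log2 change 1.86, SE 0.39, limma, adjusted p = 0.0230). Every co-cultured library was above every control library, and the lowest co-cultured value was that of replicate 3 at 72 h.

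A2m, a broad trap for proteases, went from a mean of 29.9 to 162 FPKM at 72 h (log2 change 2.49, SE 0.57, limma, adjusted p = 0.0306), and Timp2 from 861 to 513 FPKM (log2 change -0.76, SE 0.16, limma, adjusted p = 0.0239). Timp3 was at 50.5, 40.1 and 28.6 FPKM in control PSC and at 17.7, 20.2 and 25.7 FPKM in co-culture at 24 h (log2 change -0.87, SE 0.21, limma, adjusted p = 0.0827) and was not called at 72 h either (log2 change -0.46, SE 0.28, limma, adjusted p = 0.306). In the standard model at 24 h, Timp1 and Timp3 had log2 changes of 1.50 and -0.83, and with the block adjusted p-values of 0.00971 and 0.0274 (limma).

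**Figure D4:**
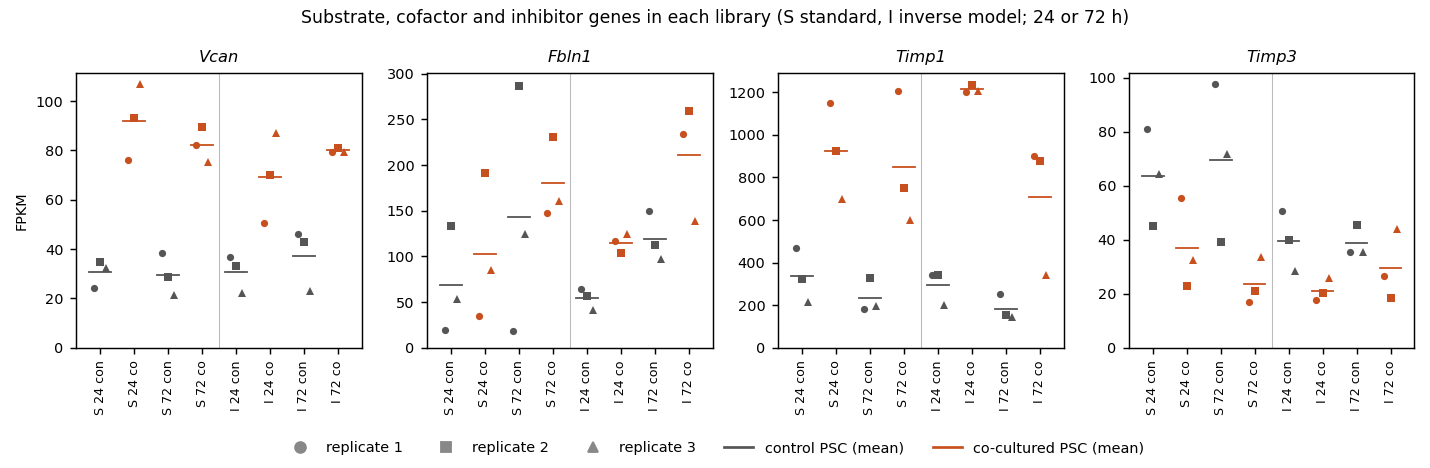
FPKM (vertical axes, linear, from 0) of Vcan, Fbln1, Timp1 and Timp3 in the 8 groups (S standard and I inverse model, 24 or 72 h, con control and co co-culture); symbols are the 3 replicates and lines the group means. Vcan and Timp1 were higher in each co-cultured library than in every library of its control group in all 4 comparisons, whereas Fbln1 and Timp3 overlapped with their controls in some.

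Other members of both families, counted by lists fixed by name, were called at 72 h in the inverse model or not at all. Of 8 tested ADAM genes outside the 10, Adam8, Adam22 and Adam11 fell and none was called as higher, with a median log2 change of -0.66. These are 3 of 8, where 12.8% of all genes were called. Adam8, a metalloproteinase known from leukocytes and tumour tissue, went from 13.1 to 3.83 FPKM (log2 change -1.67, SE 0.20, limma, adjusted p = 0.00518), Adam22 from 16.4 to 9.83 FPKM (-0.72, SE 0.15, limma, adjusted p = 0.0244) and Adam11, like Adam22 an ADAM without protease activity, from 6.13 to 3.03 FPKM (-0.93, SE 0.21, limma, adjusted p = 0.0313). Adam8 is also a gene of macrophages, whose markers summed lower in the same co-cultures as given above. The part of macrophages in the fall of Adam8 was not tested.

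Of 5 tested ADAMTS genes outside the 10, Adamts10, which acts on fibrillin microfibrils, fell from 72.5 to 38.9 FPKM at 72 h (log2 change -0.91, SE 0.19, limma, adjusted p = 0.0236). Of 5 tested ADAMTS-like genes, which lack a protease domain, none was called in any co-culture comparison. Of 11 tested genes of maturation and trafficking, Tspan17, a tetraspanin partner of Adam10, fell at 72 h (log2 change -0.63, SE 0.16, limma, adjusted p = 0.0389). At 24 h Pcsk5 rose and Pcsk6 fell, both of them proprotein convertases, where 2.47% of all genes tested were called. At 72 h 12.8% of all genes tested were called, so 1 of 5 ADAMTS genes and 1 of 11 genes here are no result about these lists. Rhbdf1 and Rhbdf2, the iRhom proteins that escort Adam17 to the cell surface, were not called. Rhbdf1 went from a mean of 77.5 to 69.7 FPKM and Rhbdf2 from 5.09 to 6.48 FPKM at 72 h in the inverse model, with overlapping groups.

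Of the 5 tested procollagen genes cut by Adamts2, Col3a1 rose at 24 h (log2 change 0.59, SE 0.11, limma, adjusted p = 0.0299) and Col5a2 at 72 h (log2 change 0.57, SE 0.14, limma, adjusted p = 0.0360) in the inverse model. None was called as lower. This was 1 of 5 at each time, where 2.47% and 12.8% of all genes were called. Substrates of the sheddases went in both directions, with 4 of 20 tested genes higher and 2 lower at 24 h, and 1 of 22 higher and 2 lower at 72 h, where 2.47% and 12.8% of all genes were called, so that the share at 72 h was near that of all genes. Ereg, an EGF receptor ligand released by Adam17, rose from 1.20 to 7.93 FPKM at 72 h (log2 change 2.28, SE 0.23, limma, adjusted p = 0.00385), whereas Fgfr2, a receptor of fibroblast growth factors, fell from 13.1 to 4.78 FPKM (log2 change -1.37, SE 0.13, limma, adjusted p = 0.00337) and Jag1, a Notch ligand, from 21.7 to 10.3 FPKM (log2 change -1.04, SE 0.12, limma, adjusted p = 0.00478). With median-ratio scaling, Timp2, Adam22, Adam11 and Tspan17 were not called at 72 h (limma, adjusted p between 0.0518 and 0.0914). At 24 h Sdc4 was not called with it (limma, adjusted p = 0.0563). These are levels of RNA, and protease activity and shedding were not measured.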

How the data were processed

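Polyadenylated RNA of PSC was sequenced in 24 libraries. The authors had reads aligned to GRCm38.p6 with HISAT2 2.0.5, counted with featureCounts 1.5.0-p3 in its default setting, which disregards the strand, and deposited FPKM per gene, with no scaling between libraries beyond that, for 53801 genes; counts and the authors' DESeq2 1.20.0 results were not used here. Of these genes, 53706 were matched to GENCODE M21 (GRCm38), and the annotation release the authors used is not given in the sources used here. Fragments per library were recovered from low FPKM and the mean transcript length of each gene, with between 96.07% and 97.03% of values within 0.05 of a whole number of fragments.

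Each comparison was fitted with limma 3.58.1 (R 4.3.3) on log2(FPKM + 0.5) with an intensity trend, two-sided, over genes above an FPKM of 1 in at least 3 libraries of the fit. Benjamini-Hochberg adjustment covered all genes tested, and genes with an adjusted p under 0.05 were called; log2 changes are on the log2(FPKM + 0.5) scale and understate changes of low genes. With 3 libraries against 3, no exact permutation p can fall below 0.1, so none is given. The fits were tested on simulated data. The 10 genes and all lists were chosen by name with earlier results of these data known. All 10 are given by library, or by range or mean, in each co-culture comparison, and in the others by the range of their changes with the largest or called ones named. Of each other list, at most the 3 called genes with the smallest adjusted p in the inverse model at 72 h are named, plus Vcan, Timp1, Timp3, Rhbdf1, Rhbdf2 and Fbln1 always. The gene with the highest Pearson r is given for the 5 genes with the widest range of group means. Pcsk5, Pcsk6, Col3a1 and the call of Sdc4 at 24 h fall outside this rule and were chosen after their values were seen.

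Deviations from group means of same-numbered control and co-culture libraries correlated at 0.46 to 0.77 at 24 h and 0.39 to 0.54 at 72 h in the standard model, where the numbers were taken to pair the libraries, and at -0.12 to 0.10 in the inverse model, where they were not. Alternatives were pseudocounts of 1 and 0.1, no filter or a mean FPKM above 5, median-ratio scaling, the replicate block, all 24 libraries in 1 model, voom on recovered fragments and each library left out; leaving out the standard-model libraries numbered 1 was added after the data were seen. Promoter windows are from RefSeq (GRCm38.p6), which held 6 of the 10 genes. Python 3.11.15, numpy 2.4.6, pandas 2.3.3 and matplotlib 3.10.9 were used for tables and plots. Some items are not reported here.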

Additional observations from a re-analysis of the deposited data

How the results depend on the processing

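In the inverse model at 24 h, where 1 of the 10 genes was called, none was called without a filter, with the replicate block or with all 24 libraries in 1 model, and 2 were called with a mean FPKM above 5 or with voom; with 1 library left out, 0 to 2 were called. In the inverse model at 72 h, where 3 were called, 0 were called with all 24 libraries in 1 model and 6 with voom, and 1 to 5 with 1 library left out; with the replicate block 3 were called. The counts of both co-culture comparisons of the standard model, of the 4 differences of effects and of 3 control comparisons stayed at 0 under every alternative run (voom was run for the co-culture comparisons only), apart from control PSC of both models at 24 h, where 1 gene was called without standard replicate 1. That gene was Adamts15, whose log2 difference of 0.78 became -1.20 and ranged from -1.20 to 1.90 with 1 library left out. The cause was not tested.

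Over all genes, 317 were called in the inverse model at 24 h, but 88 with the block, 50 without a filter, 11 with all 24 libraries and 520 with voom. At 72 h 1678 were called, but 902 with the block, 888 without a filter and 897 with all 24 libraries. In the standard model, where 0 were called, the block gave 157 at 24 h and 1 at 72 h, and all 24 libraries in 1 model gave 5 and 36. Between 72 h and 24 h, a difference in inverse control PSC was called for 2516 genes, and for 1425 without a filter. Control PSC of both models differed in 0 genes, but in 58 at 24 h and 3 at 72 h without the standard-model libraries numbered 1, an alternative chosen after seeing the data. With 1 library left out, 67 to 412 genes were called at 24 h and 368 to 1637 at 72 h in the inverse model, and 1243 to 2369 between its controls. The difference of the effect between 72 h and 24 h in the inverse model was called for 0 genes, and for up to 75 with 1 library left out, and that between models at 72 h for 16 with the replicate block. Of the calls in the lists of substrates, partners and other family members, 10 of 13 at 24 h and 8 of 18 at 72 h were lost with the block, Adam22, Adam11, Col3a1 and Col5a2 among them. Timp1 at 24 h, and Ereg, Fgfr2, Jag1, Sdc4 and Tnfaip6 at 72 h, kept their calls in every alternative, and the other 12 and 13 lost them in at least 1. Same-numbered libraries of the inverse model are not known to share more than a number, and its calls with the block say nothing of weaker effects. Of the values of single genes under the alternatives, 2048 kept their side of the threshold, 19 lost a call, 11 gained one and 2 changed sign with a call. Leaving out a library of 3 leaves 2, whose spread is less certain.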
